A study of Homo sapiens with 8 samples.

Results

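PC9, a human lung adenocarcinoma line known for its activating EGFR mutation, was compared with 3 other lines labelled as lung adenocarcinoma, A549, LC2/ad and PC3, for the level of each microRNA on a pair of TaqMan PCR cards. The comparison took every microRNA assay with a threshold cycle (Ct, the PCR cycle at which product becomes detectable) of 35 or below in at least 1 sample, which gave 372 of the 754 assays. The assays just inside that rule were miR-153, with a lowest Ct of 35, and miR-572, with 34.99. Just outside lay miR-876-3p at 35.01 and miR-221# at 35.02. The # marks a passenger strand, the arm of the hairpin that is usually degraded.

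Each line gave 1 control sample, labelled as untreated, and 1 sample exposed for 72 h to 5 ng/ml of TGF-β1. PC9 thus had 2 samples and the other lines had 6. TGF-β1 is the cytokine most used to push epithelial cells into a mesenchymal state. The culture medium was RPMI with fetal bovine serum for all 4. The authors did no authentication of the lines, per the labels, and PC3 shares its name with a prostate line. Treatment was taken from the titles and the treatment label, because the source names word the exposure the other way round. No culture was repeated within a line and treatment, and PC9 is a single line, so a difference found here belongs to these cultures and cannot be told apart from anything else that set the PC9 cultures or their RNA apart.

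MicroRNAs are short RNAs that pair through bases 2 to 8, the seed, with target messenger RNAs and lower their output. The miR-200 family and miR-205 are hallmarks of epithelial cells, where they hold down the ZEB transcription factors that drive the mesenchymal state. miR-146a and miR-155 are induced by NF-κB signalling.

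The mature sequences of microRNAs on which the comparison turns are given from RefSeq (GRCh38.p14), 5′ to 3′, with the seed in capitals. The first 5 are the miR-200 family, shown because they carry only 2 seeds between them. The next 5 are the other microRNAs with the largest called positive differences, leaving out miR-886, and the last 3 are those called lower in PC9.
miR-200c: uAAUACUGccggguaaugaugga
miR-200b: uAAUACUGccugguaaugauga
miR-429: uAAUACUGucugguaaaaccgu
miR-200a: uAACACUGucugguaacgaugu
miR-141: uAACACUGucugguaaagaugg
miR-205: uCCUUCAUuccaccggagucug
miR-135b: uAUGGCUUuucauuccuauguga
miR-203: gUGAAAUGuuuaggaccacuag
miR-146a: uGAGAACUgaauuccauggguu
miR-155: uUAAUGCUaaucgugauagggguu
miR-148a: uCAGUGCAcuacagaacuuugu
miR-374b: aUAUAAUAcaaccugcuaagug
miR-628-5p: aUGCUGACauauuuacuagagg
The seed AAUACUG was shared by 3 of them, miR-200c, miR-200b and miR-429. The seed AACACUG was shared by 2, miR-200a and miR-141. The genes of miR-200b, miR-200a and miR-429 lie together on the plus strand at chr1:1167104-1169087, and those of miR-200c and miR-141 at chr12:6963699-6964191, also on the plus strand.

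The level of an assay is the sample's normalizer Ct minus the assay's Ct, in log2 units, where the normalizer is the mean Ct of the microRNAs detected in all 8 samples on the same card (117 on card A, 51 on card B). A level of 0 is that mean, and 1 unit more stands for a 2-fold higher level. Levels below the weakest level that every sample could resolve, -5.85 on card A and -5.21 on card B, were set to that lower limit. On both cards this limit was the PC9 control's own. The 6 samples of the other lines could resolve lower levels, with own limits of -7.57 to -7.12 on card A. Of the 372 members, 318 lay above the common limit in at least 1 sample and were tested, and 54 lay under it in all 8 samples. The PC9 samples detected 225 and 231 assays at a Ct of 35 or below and the 6 others 249 to 281. The PC9 normalizer Ct was 29.1 and 28.9 on card A, against 27.4 to 27.9 elsewhere. U6 on card A had a mean Ct of 19.1 and 19.8 in PC9 and 18.6 to 19.04 in the others, so microRNA relative to U6 was lower in PC9. The control small RNAs RNU44 and RNU48 were late in PC9 as the microRNAs were. Their mean Ct on card A was 23.4 and 23.7 in PC9 and 21.7 to 22.05 in the others. The part of these differences in the results was not tested beyond the normalizers compared below.

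A549 and LC2/ad were nearly the same profile. Their line means correlated at r = 0.98 over the 318 assays, and 11.01% of assays differed at least 2-fold between them. The same share was 11.3% between the control and TGF-β1 samples of A549 and 21.7% between those of LC2/ad. Every other pair of lines had r between 0.79 and 0.84 and differed at least 2-fold in 41.2% to 48.1% of assays. PC9 differed in 41.2% from A549, 44.3% from LC2/ad and 47.2% from PC3. These correlations are across assays, which are not independent, and describe the samples only. Since A549 and LC2/ad stand so close, the 3 other lines amount to little more than a pair of distinct profiles. Counts of calls are given below with each of them left out in turn and with both as 1 block, not with both left out.

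**Figure D1:**
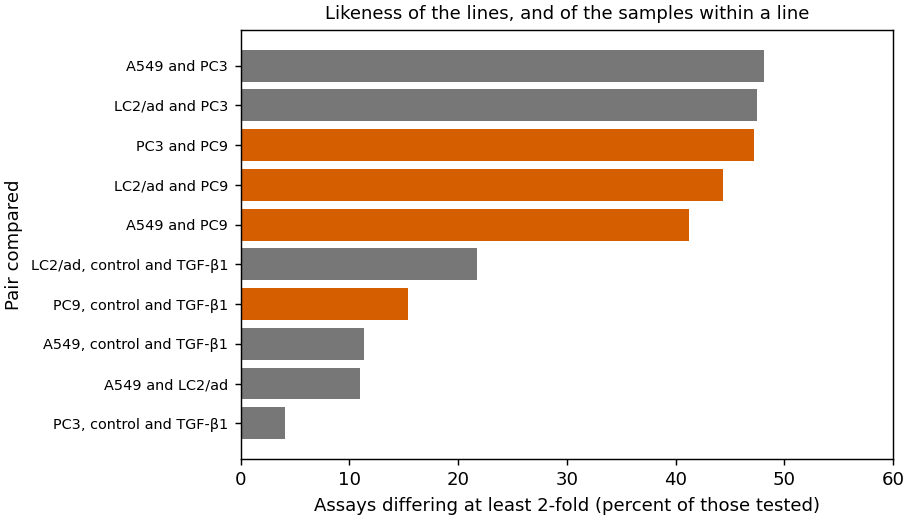
Percent of the 318 tested assays that differed at least 2-fold between 2 line means (6 pairs) or between the control and TGF-β1 samples of 1 line (4 pairs); pairs with PC9 are in orange. A549 and LC2/ad, at 11.01%, sit among the pairs within a line, and the 3 pairs of PC9 with another line lie between 41.2% and 47.2%.

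In the comparison of PC9 with the other lines, 18 of 318 assays were higher in PC9 (5.66%) and 3 were lower (0.943%) at an adjusted p below 0.05, in a limma fit with treatment as covariate and line as a random block. At an unadjusted p below 0.05 there were 56. The 21 called assays (6.6%) all had both PC9 samples beyond all 6 other samples. That separation alone was more common, with 54 assays above (17%) and 54 below (17%), and 210 overlapping. In 13 of the 18 higher assays some or all of the other samples were at the lower limit, so the difference is a bound, written as at least. Samples set to the limit show no spread among themselves, so the SE and p of these assays do not fully measure the spread of the others. The median difference over all 318 assays was -0.12 and the median SE 0.80.

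The number of calls depended on which lines were kept. Without LC2/ad 2 assays were higher, miR-155 and miR-886-3p, and none lower, with 37 at an unadjusted p below 0.05. Without A549 the counts were 6 and 0 (39 unadjusted), the 6 being miR-200a, miR-429, miR-205, miR-155 and both miR-886 assays. Without PC3 they were 65 and 56, all 21 calls among them. In that fit the estimated correlation within lines was -0.0067, against 0.74 in the main fit, so the line block had almost no effect. Its counts and p-values thus treat the samples of A549 and LC2/ad as nearly independent. Without either PC9 sample, 11 of the 21 were still called. Of the calls described below, miR-200b passed under 8 of 18 alternatives, miR-146a and miR-135b under 9, miR-148a and miR-374b under 8 and miR-628-5p under 14. With A549 and LC2/ad taken as 1 block, an alternative chosen after seeing the data, 14 were higher and 2 lower, 16 of them among the 21. With 1 mean per line, the counts were 5 and 1. Of these, miR-205, miR-155, miR-886-3p, miR-200a# and miR-628-5p were among the 21, and miR-584, chosen for naming after its values were seen, was not. In the 5 higher ones, 3 to 6 of the 6 other samples were set to the lower limit. For miR-205 and miR-584 all 6 were, so their p in that fit measures no spread between the other lines. With U6 as the normalizer, 6 were higher and 5 lower, so that 54.5% of calls were higher against 85.7% with the mean of the microRNAs, and the median of all assays moved from -0.12 to -0.42.

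**Figure D2:**
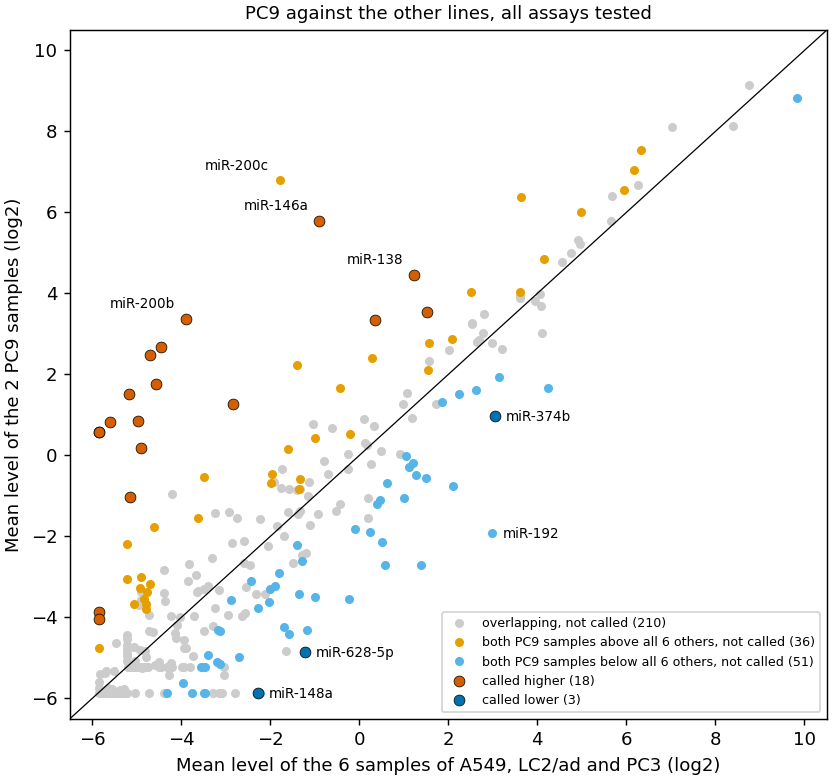
Mean level of the 2 PC9 samples against that of the 6 other samples (log2, both axes) for the 318 tested assays; the line marks equal levels. The 18 assays called higher lie above the line, most of them where the other lines are near the lower limit, and the 3 called lower lie below it.

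Epithelial microRNAs were the group most often higher in PC9. Of the 8 assays of the miR-200 family and miR-205 that were tested, 6 were called higher, 7 had both PC9 samples above all others, and the median difference was 6.13. Over all 318 assays 5.66% were called higher and 17% were above. This list, like the others, was chosen with earlier results of these data known. The one assay that overlapped was miR-141#, at the limit in 7 samples.

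The level of miR-200b was 3.34 and 3.42 in PC9 (control, then TGF-β1, here and below), -4.33 and -2.67 in LC2/ad, -2.68 and -2.003 in A549 and the limit in PC3. PC9 was above A549 and LC2/ad, which were above PC3, with no overlap between PC9 and the rest. The difference was at least 7.28 (SE 1.37, adjusted p = 0.0280).

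miR-429 stood at 1.28 and 1.78 in PC9, the limit and -4.59 in LC2/ad, -5.65 and -3.26 in A549 and the limit in PC3. For miR-200a the levels were 0.60 and 1.12 in PC9, the limit and -5.38 in LC2/ad, -4.38 and -2.52 in A549 and the limit in PC3. Both had PC9 highest and PC3 at the limit. The differences were at least 6.71 (SE 1.15, adjusted p = 0.0273) for miR-429 and at least 5.83 (SE 1.18, adjusted p = 0.0280) for miR-200a. The passenger strand miR-200a# was also called, at least 4.13 (SE 0.95, adjusted p = 0.0480). All 4 tested assays of the chromosome 1 cluster were thus called higher. It was 1 of 25 clusters of neighbouring microRNA genes (at most 10000 bases apart), of which 13 had a single sign in all their assays.

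The chromosome 12 pair had another order of lines. miR-200c had levels of 6.91 and 6.68 in PC9, 2.25 and 1.85 in PC3, -3.47 and -4.46 in LC2/ad and -3.30 and -3.61 in A549. PC3 lay between PC9 and the other lines, and PC9 was above every other sample. miR-200c had the largest difference of all 318 assays, 8.58 (SE 2.098), but did not pass the threshold (adjusted p = 0.0612). The levels of miR-141 were 0.04 and 0.34 in PC9, -3.17 and -2.84 in PC3 and the limit in LC2/ad and A549. Here too PC3 stood between PC9 and the rest, and the difference was at least 5.09 (SE 1.08, adjusted p = 0.0336).

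miR-205, an epithelial microRNA with a gene of its own at chr1:209432133-209432242, was detected in PC9 alone. In miR-205 the levels were 1.03 and 0.12 in PC9 and the limit in A549, LC2/ad and PC3. Its raw Ct was 28.1 and 28.8 in PC9, and all 6 other samples were listed at 40, with no amplification. The difference was at least 6.43 (SE 0.57, adjusted p = 0.000905). With all 6 others set to the same limit, that SE and p measure no spread among them. miR-205 was called under 16 of the 17 alternatives that gave it a value, the exception being the fit without LC2/ad (adjusted p = 0.0544). The filter that asked for 4 samples above the limit left it untested.

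miR-203, a microRNA of stratified epithelium, and miR-135b were also higher. miR-203 was at 1.68 and 1.83 in PC9, -5.42 and -3.44 in LC2/ad, -3.92 and -2.93 in A549 and the limit in PC3. The level of miR-135b was 2.27 and 2.70 in PC9, the limit and -3.48 in LC2/ad, -4.81 and -2.37 in A549 and the limit in PC3. The groups did not overlap in either. miR-203 differed by at least 6.32 (SE 1.21, adjusted p = 0.0280) and miR-135b by at least 7.19 (SE 1.47, adjusted p = 0.0280). The passenger strand miR-135b# was detected in both PC9 samples and in none of the others, at levels of -2.56 and -3.53, with a difference of at least 2.17 that did not pass (adjusted p = 0.0851).

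The NF-κB-linked list held 4 assays, of which 2 were called higher, against 5.66% of all 318 assays. Its median difference was 3.60. miR-146a, which targets the adaptors TRAF6 and IRAK1, was measured in all samples. miR-146a stood at 5.76 and 5.82 in PC9, -3.02 and -2.72 in PC3, -0.19 and -0.17 in LC2/ad and 0.27 and 0.42 in A549. PC3 was lowest and PC9 highest, with a gap of 5.33 units to the nearest other sample. The difference was 6.69 (SE 1.12, adjusted p = 0.0273).

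miR-155, processed from the MIR155 host transcript, had the smallest adjusted p of all assays. For miR-155 the levels were 0.69 and 0.48 in PC9, -5.75 and the limit in LC2/ad and the limit in PC3 and A549. The difference was at least 6.42 (SE 0.38, adjusted p = 0.000163), and it was called under 16 of 17 alternatives. With 5 of the 6 others set to the same limit, that SE and p do not measure the spread among them. By raw Ct, 5 of the 6 others detected miR-155, at 33.2 to 34.9. With each sample's own limit the SE was 1.13 and the adjusted p 0.0235. The list's other members overlapped. miR-146b-5p, the paralog of miR-146a, had a difference of -1.73 (adjusted p = 0.759), and miR-9 0.79 (adjusted p = 0.933), which turned to -0.12 with U6 as the normalizer.

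miR-223, a microRNA of myeloid blood cells, was higher in PC9 at low levels. miR-223 had levels of -3.99 and -4.09 in PC9 and the limit in A549, LC2/ad and PC3. The difference was at least 1.81 (SE 0.37, adjusted p = 0.0280). All 6 others were set to the limit, so here too the SE and p measure no spread among them. The raw Ct of miR-223 was 33.1 and 33.0 in PC9 and 33.9 in the TGF-β1 sample of A549, which thus detected it, under the common limit. miR-223 was called under 8 of the 16 alternatives that gave it a value, but not with U6 or with each sample's own limit. Of the 8 blood marker assays (miR-451, miR-144, miR-142, miR-223 and miR-150, by strand), 3 were members. Their summed linear level, relative to the normalizer mean, was 0.0588 to 0.0627 in PC9 and 0 to 0.0468 in the others. miR-142-3p was at the limit in both PC9 samples, and the part of blood cell RNA in the result was not tested.

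The 2 assays named miR-886 were higher as well. RefSeq places this transcript in VTRNA2-1, a vault RNA gene of 108 bases at chr5:136080491-136080598, and not in a microRNA. The levels of miR-886-5p were 2.93 and 2.42 in PC9, -4.51 and -4.96 in LC2/ad, -2.78 and -2.70 in A549 and the limit in PC3. In miR-886-3p the levels were 0.97 and 0.67 in PC9, -5.21 and the limit in LC2/ad, -5.42 and -5.37 in A549 and the limit in PC3. PC9 was above all others in both, and PC3 was at the limit. The differences were at least 7.12 (SE 1.07, adjusted p = 0.0216) and at least 6.41 (SE 0.50, adjusted p = 0.000553). miR-886-3p was called under 17 of 18 alternatives. With 3 of the 6 others set to the same limit, its SE and p do not fully measure the spread among them. With each sample's own limit its SE was 1.03 and its adjusted p 0.0235.

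The other higher calls included 4 assays measured above the limit in all samples, which the naming rule did not take and which were named after their values were seen. miR-138 was at 4.26 and 4.65 in PC9, 1.11 and 0.74 in PC3, 1.00 and 0.99 in LC2/ad and 1.86 and 1.70 in A549. The level of miR-139-5p was 1.06 and 1.48 in PC9, -3.24 and -3.63 in PC3, -2.87 and -1.91 in LC2/ad and -2.93 and -2.41 in A549. Neither overlapped. miR-138 differed by 3.22 (SE 0.56, adjusted p = 0.0273) and miR-139-5p by 4.10 (SE 0.74, adjusted p = 0.0280). miR-625# stood at -0.35 to 1.02 in the 6 other samples against 3.73 and 2.94 in PC9, a difference of 2.98 (SE 0.61, adjusted p = 0.0280). miR-1290 was even among the other lines, at 1.40 to 1.66 against 3.63 and 3.45 in PC9, a difference of 2.02 (SE 0.37, adjusted p = 0.0280).

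Detection alone gave a short list. In PC9 only, 4 of the 372 members were detected in both samples (1.08%), namely miR-205, miR-135b#, miR-139-3p and miR-296-5p. miR-296-5p had levels of -3.76 and -3.99 in PC9 against the limit elsewhere and was called (at least 1.98, SE 0.38, adjusted p = 0.0280). Its SE and p also measure no spread among the other samples, all set to the limit. miR-139-3p, the other arm of the miR-139 hairpin, had -5.28 and -4.23 and a difference of at least 1.10 that did not pass (adjusted p = 0.470). In the opposite pattern, 11 members were detected in all 6 other samples and in neither PC9 sample (2.96%), among them miR-148a, miR-10b, miR-95, miR-582-5p, let-7c and both arms of miR-455. Raw Ct takes no account of the later normalizer Ct of PC9, so this pattern leans toward absence in PC9. As levels, let-7c (Ct 35.16 in the PC9 control) and miR-455-5p (35.41 in the PC9 TGF-β1 sample) were at the limit in both PC9 samples. Some samples of the other lines were at the limit too, so these assays overlapped. miR-148a, miR-10b, miR-95, miR-582-5p and miR-455-3p still had both PC9 samples below all others.

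On the lower side, 3 assays were called. miR-148a stood at the limit in PC9, -2.67 and -1.83 in PC3, -2.01 and -1.90 in LC2/ad and -2.34 and -2.89 in A549. The 6 other samples lay close together and PC9 was under all of them. miR-148a, which targets the DNA methyltransferase DNMT1, had a difference of -3.58, a bound (SE 0.69, adjusted p = 0.0280), and its raw Ct was 40 in both PC9 samples. For miR-628-5p the levels were -5.19 and -4.49 in PC9, -1.23 and -1.40 in PC3, -0.98 and -1.22 in LC2/ad and -1.14 and -1.39 in A549. It differed by -3.62 (SE 0.58, adjusted p = 0.0268), and its other arm, miR-628-3p, also had both PC9 samples lowest (-2.03, adjusted p = 0.132). miR-374b had levels of 1.13 and 0.83 in PC9, 2.82 and 2.64 in PC3, 3.29 and 3.02 in LC2/ad and 3.47 and 3.09 in A549. The groups did not overlap, and the difference was -2.08 (SE 0.42, adjusted p = 0.0280).

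The largest negative differences did not pass the threshold. miR-192 and miR-194, microRNAs of gut, liver and kidney epithelium, were high in A549 and LC2/ad. The levels of miR-192 were -1.82 and -1.998 in PC9, -0.57 and -0.62 in PC3, 4.47 and 4.08 in LC2/ad and 5.61 and 4.94 in A549. In miR-194 the levels were -2.78 and -2.65 in PC9, -2.63 and -1.96 in PC3, 3.19 and 2.50 in LC2/ad and 3.81 and 3.44 in A549. In both, PC3 was the line nearest to PC9, and PC9 was under every other sample, for miR-194 by only 0.02 units at the closest samples. The differences were -4.90 (SE 1.97, adjusted p = 0.239) and -4.11 (SE 2.08, adjusted p = 0.401). miR-10b was at the limit in PC9, 2.29 and 2.35 in PC3, -4.39 and -4.75 in LC2/ad and -3.96 and -4.87 in A549. This microRNA, encoded in the HOXD cluster, was high in PC3 alone, and A549 and LC2/ad were within 2 units of the limit. The difference was -3.63, a bound (adjusted p = 0.605), which became -1.36 without PC3 (adjusted p = 0.0106) and ranged from -8.75 to -1.36 over the alternatives. The fit without PC3 barely used the line block, so its p does not measure a spread between lines.

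Not all of the 54 assays with both PC9 samples below all others are named here. The naming rule took 6 further ones without a call, next by size of difference and all measured in every sample. These were miR-320B (-3.32), miR-345 (-3.28), miR-491-5p (-3.13), miR-140-5p (-2.87), miR-140-3p (-2.83) and let-7b (-2.64), with adjusted p from 0.0654 to 0.226. The 2 arms of miR-140, a microRNA known from cartilage, thus lay on the same side.

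Of 12 EGFR-linked assays tested, 1 was called higher, miR-146a, against 5.66% of all 318 assays. The median difference of the list was 0.49. miR-21, an abundant microRNA that EGFR signalling raises, did not separate PC9 from the 3 lines together. The level of miR-21 was 2.43 and 3.63 in PC9, 2.28 and 2.41 in PC3, 4.93 and 4.18 in LC2/ad and 5.02 and 5.84 in A549. Both PC9 samples were above those of PC3 and under those of A549 and LC2/ad, and the difference was -1.08 (SE 1.33, adjusted p = 0.857). miR-221 and miR-222, which share the seed GCUACAU, had differences of 2.103 (SE 1.24) and 0.40 (SE 0.52), neither called, and miR-222 turned to -0.51 with U6 as the normalizer. The 2 PC9 samples were above all others for miR-221, by 0.03 units over PC3. The guide assay for miR-7, which targets EGFR, gave 1.26 (SE 1.70), with a level of -2.15 in the TGF-β1 sample of PC9 and the limit in its control. That difference became 2.95 without the PC9 control (adjusted p = 0.0168) and turned to -0.44 without the PC9 TGF-β1 sample (adjusted p = 0.728). The passenger strand gave 0.24 (SE 1.08), turning to -0.24 with U6.

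miR-31 was high in all lines but PC3. miR-31 stood at 4.93 and 5.73 in PC9, -0.16 and 0.20 in PC3, 6.42 and 8.00 in LC2/ad and 7.11 and 7.94 in A549. PC9 lay between PC3 and the other lines, at a difference of 0.41 (SE 2.67, adjusted p = 0.946), and without PC3 the difference turned to -2.04 with an adjusted p of 0.00351. That last fit barely used the line block, so its p does not measure a spread between lines.

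Other lists had no call or 1 call. In the miR-17 cluster and its paralogs, which promote proliferation, 5 of 20 assays had both PC9 samples above all others, 1 below, and the median difference was 0.04. Over all 318 assays 17% were above and 17% below. miR-17 had 1.21 (SE 0.54, adjusted p = 0.303) and miR-92a 1.21 (SE 0.41, adjusted p = 0.164). Of 8 let-7 assays 1 was above and 2 below, with a median of 0.27. In the miR-148 and miR-152 list, 1 of 4 assays was called lower, miR-148a, against 0.943% of all 318, and the median was -1.40.

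All 14 tested assays of the 14q32 cluster, the imprinted locus of the microRNAs in the study's title, had negative differences, with a median of -0.57 and no call. In 13 of them both PC9 samples were at the limit, the exception being miR-494, so that the sign follows from any level above it elsewhere.

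Markers of other cell types gave no further call. Of 6 fibroblast and smooth muscle assays tested, 4 were at the limit in both PC9 samples, among them miR-214 and miR-199a-3p, which had levels of 1.69 and 2.06 and 2.29 and 2.17 in PC3. The rest, miR-145 and miR-143, were at the limit in the PC9 control but above it in the PC9 TGF-β1 sample. miR-145 had a level of -3.40 there, against -3.45 in the LC2/ad TGF-β1 sample and the limit in the remaining samples. The differences were 0.83 for miR-145 and -0.20 for miR-143, neither called. Neither assay of the liver marker miR-122 reached a Ct of 35 in any sample.

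**Figure D3:**
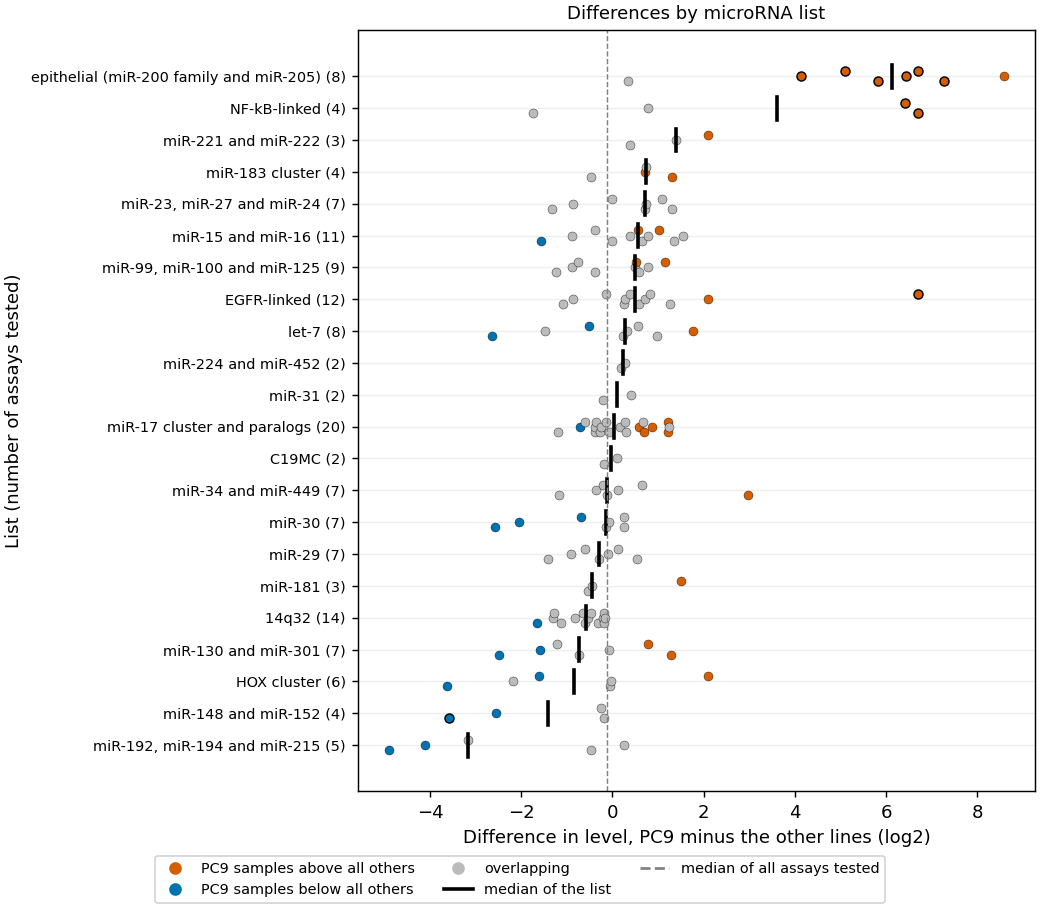
Difference in level (PC9 minus the other lines, log2) of each tested assay, by list, with the list median (black bar) and the median of all 318 assays (dashed). Thick outlines mark called assays. The epithelial list has the highest median, 6.13, and the list of miR-192, miR-194 and miR-215 the lowest, -3.18.

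The 2 arms of a hairpin can be compared where the card held both. Of 61 such pairs, 41 had differences of the same sign. Both arms were separated in 11 pairs, on the same side in all but 1. In that pair, miR-149 had both PC9 samples above all others (3.63, adjusted p = 0.168) and miR-149# both below (-1.20, adjusted p = 0.511).

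Against each line in turn, with line as a fixed effect so that only the spread within lines counts, PC9 was above all 3 lines in 35 assays (11%) and below all 3 in 32 (10.1%). It was higher than A549 in 67 assays (21.1%) and lower in 63 (19.8%). Against LC2/ad it was higher in 60 (18.9%) and lower in 64 (20.1%), and against PC3 higher in 67 (21.1%) and lower in 79 (24.8%). All 21 called assays were among the 35 and 32. That fit asks whether these PC9 cultures differed from those of each line and not whether PC9 stands outside the spread between lines.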

How the data were processed

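Raw Ct values of 754 TaqMan microRNA assays were deposited by the authors for 8 samples, with no normalization and with 40 listed where an assay did not amplify. The deposited ratio to the A549 control, the authors' calibrator per the file headers, was recomputed from those Ct values and U6 (largest log2 difference 4.07e-06) and served as a check of the card layout. How the instrument set the threshold is not given in the sources used here. Levels were computed as described in the report, and the precision of a single Ct is unknown, since wells were not repeated. The test was limma 3.58.1 in R 4.3.3, as a fit over 318 assays of PC9 against the 3 other lines with treatment as covariate and line as a random block (duplicateCorrelation, consensus correlation 0.74), with Benjamini-Hochberg adjustment, a threshold of 0.05 and two-sided p-values. The fit was tried on simulated levels with no lower limit and with lines drawn independently. Those settings differ from these data, so the trial does not show how the fit behaves here. Nothing in the labels says that a line and treatment was cultured more than once, so p-values measure the spread between these samples and lines.

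The text names the 12 largest differences each way among called assays, filled with separated ones by size, examples from each list, assays detected on 1 side only, and the miR-200 family, miR-205, miR-146a, miR-21, miR-7, miR-31, miR-221 and miR-222. The rule names the 4 assays of highest level in each list, and fewer of those are described than it names. Members and lists were chosen with earlier results of these data known. Mature sequences of 28 of 28 microRNAs looked up were matched in RefSeq. Alternatives covered the normalizer, the lower limit, the Ct limit, the filter, the error model, each treatment alone, and each line or PC9 sample left out. The authors' fold columns within lines were not used here.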

Additional observations from a re-analysis of the deposited data

Results flagged for a closer look

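Dixon's test was applied to the 6 samples of the other lines in the 111 named assays with any spread among them, not to all assays tested. It marked 4 values, where chance marks about 1 in 20 groups of uncensored values. In 3 of them the other 5 samples were at the lower limit, so the gap ratio was 1 by construction, whatever the size of the value, and these say nothing beyond a single sample lying above the limit. They were miR-155 at -5.75 in the LC2/ad control, miR-200a# at -4.86 in the A549 TGF-β1 sample and miR-145 at -3.45 in the LC2/ad TGF-β1 sample. The other was miR-409-3p, of the 14q32 cluster, at -0.28 in the LC2/ad TGF-β1 sample against a median of -4.59, where 3 of the 6 samples were at the limit, so its test is affected by the limit too.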

How the results depend on the processing

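Of 117 assays that the naming rule or the text took, none of the 21 called assays changed direction under any of the 18 alternatives, and 37 others did. Over 2057 values of an assay under an alternative, 1677 kept sign and side of the threshold, 157 lost the call, 131 gained it and 92 turned sign. The turned assays had main differences of at most 1.26 in size, and 1 turned value passed the threshold, miR-31 without PC3. In the fit without PC3 the line block had almost no effect. The calls themselves depended on the processing, with counts of 18 higher and 3 lower in the main setting. They were 6 and 5 with U6. Each sample's own limit gave 9 higher and 2 lower, with 11 of the 21 calls kept. Keeping 40 as a value gave 2 higher and 2 lower, with 2 of the 21 kept. There were 19 higher and 6 lower with a Ct limit of 32, and 12 higher and 1 lower with a filter of 4 samples. Counts were 30 and 23 with no line block, 5 and 1 with line means, 68 and 71 with line as a fixed effect, 9 and 1 in control samples, and 4 and 0 in TGF-β1 samples, where 49 assays had an unadjusted limma p below 0.05. With a line or PC9 sample left out, 2 to 65 were higher and 0 to 56 lower. The 54 assays above and 54 below all others became 27 and 73 with U6, 63 and 32 with RNU44 and RNU48, 61 and 39 with the median normalizer, 35 and 36 with a Ct limit of 32, and 84 and 72 in control samples. With a line or PC9 sample left out, 57 to 82 were above and 57 to 78 below. The cause of these shifts was not tested. No paired analysis was possible because PC9 was a single line, so no pair of samples spans the comparison; line as a random block was part of the main fit.

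With the median normalizer, the sign turned for miR-30b (0.35), miR-29c (0.21), miR-30a-3p (-0.058), miR-449a (0.017), miR-301a (0.42), miR-152 (0.31), miR-148b (0.25) and rno-miR-7# (-0.0617). With U6 as the normalizer, the sign turned for miR-222 (-0.51), miR-30c (-0.65), miR-9 (-0.12), miR-106a (-0.024), miR-20a (-0.20), miR-19b (-0.32), let-7e (-0.67), miR-100 (-0.12), miR-125a-5p (-0.31), miR-29a (-0.77), miR-30a-3p (-0.24), miR-183 (-0.17), miR-15b (-0.34), miR-27a (-0.20), miR-31 (-0.49), miR-454 (-0.13), miR-224 (-0.62), miR-452 (-0.71), miR-126 (-0.16), miR-126# (-0.024), miR-128 (-0.63) and rno-miR-7# (-0.24). With RNU44 and RNU48, the sign turned for miR-30b (0.14), miR-30e-3p (0.59), miR-449a (0.018), miR-31# (0.46), miR-301a (0.20), miR-152 (0.10) and miR-148b (0.033). With each sample's own limit, the sign turned for miR-194# (0.11), miR-519a (0.76), miR-142-3p (0.43) and miR-129-3p (0.43). With 40 kept as a value, the sign turned for miR-34a (1.08), miR-519a (1.60) and miR-129-3p (0.082). With a Ct limit of 32, the sign turned for miR-183 (-0.021), miR-34a# (-0.45) and miR-128 (-0.29). In control samples only, the sign turned for miR-30b (0.063), miR-148b (0.38), miR-452 (-0.056), dme-miR-7 (-0.44) and rno-miR-7# (-0.11). In TGF-β1 samples only, the sign turned for miR-30e-3p (0.057), miR-449a (0.66), miR-31# (0.0067), miR-301a (0.21) and miR-128 (-0.35). With A549 and LC2/ad as 1 block, the sign turned for miR-30a-3p (-0.0083), miR-31# (0.72) and miR-128 (-0.071). With a line or PC9 sample left out, the difference ranged over both signs for miR-30b (-0.36 to 0.063), miR-9 (-0.14 to 2.27), miR-29c (-0.91 to 0.26), miR-34a (-3.35 to 0.061), miR-31# (-2.39 to 0.99), miR-152 (-0.40 to 0.051), miR-30a-3p (-0.16 to 0.84), miR-449a (-1.37 to 0.66), miR-452 (-0.063 to 0.70), miR-126# (-0.10 to 1.33), miR-128 (-0.35 to 1.07), let-7e (-0.26 to 0.49), miR-100 (-0.45 to 1.57), miR-29a (-0.43 to 0.44), miR-30e-3p (-0.40 to 0.43), miR-34a# (-0.84 to 1.42), miR-31 (-2.04 to 1.72), miR-301a (-0.45 to 0.34), miR-224 (-0.61 to 1.18), miR-519a (-0.34 to 0.073), miR-148b (-0.89 to 0.38), dme-miR-7 (-0.44 to 2.95) and rno-miR-7# (-0.11 to 0.59).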
